A study of Mus musculus with 2 samples.

Results

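The genes described here are 42 genes of lysosomes and autophagy, chosen by name: the Ragulator and Rag GTPases of the lysosomal surface, the MiT/TFE transcription factors, the autophagy machinery, receptors for cargo and mitochondria, and proteins of the lysosome itself. Of the 42 genes, 40 had a probe set of their own on the array, among 22180 genes in all, and 39 were kept after removal of dim genes, among 11450 genes kept. Optn was not analysed here, and the 1 probe set that lists Bnip3l also lists its pseudogene and was not used. Rragd was measured in both arrays but was too dim to be kept. RNA came from long-term haematopoietic stem cells (LT-HSCs) of 10-week-old male C57BL/6J mice, sorted from bone marrow as Lineage-, Sca-1+, cKit+, CD48- and CD150+ cells. After 1 day in SF-O3 medium with stem cell factor and thrombopoietin (100 ng/ml each), cells received a retrovirus with full-length wild-type Pot1a or a mock control virus. They were cultured for 3 more days, and RNA was taken from GFP+ LT-HSCs. Both populations thus shared the culture, a retrovirus and the GFP gate, and differed in the Pot1a cDNA, which the vector joins to GFP in 1 transcript. Each condition was measured on 1 Affymetrix gene array, so no difference has a replicate check and no test was made. Whether the RNA came from 1 mouse or from pooled mice is not given in the sources used here.

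Autophagy wraps portions of cytoplasm or whole organelles in a double membrane, the autophagosome, which fuses with the lysosome, where acid hydrolases break the content down. The lysosome is also where nutrient supply is sensed: Ragulator anchors the Rag GTPases there, and these recruit the growth kinase complex mTORC1, which in turn holds back autophagy and the transcription factor TFEB. TFEB and its relatives TFE3 and MITF bind an element with the core CACGTG in front of many lysosomal and autophagy genes. In HSCs, autophagy and mitophagy, its form for mitochondria, are known to be needed for maintenance of the stem cell pool, and lysosomes are prominent in quiescent cells.

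The CACGTG core was common in front of the genes described here. RefSeq windows (build GRCm38.p6) from 250 bases before to 50 bases after the gene start were matched for 34 of the 42 genes, with 39 windows in all. Atg12, Atg16l1, Becn1, Bnip3l, Ctsb, Lamtor3, Map1lc3a and Pik3c3 had no window. CACGTG, which reads the same on both strands, was found in the windows of 12 of the 34 genes and in 30.8% of the 39 windows, whereas 7.15% of all 32851 windows of that length hold it. The longer palindrome TCACGTGA, which contains the first motif, was found in 3 member windows (7.69%) and in 0.974% of all windows. Neither motif was particular to the members. Further genes of the same pathways, described below, had 154 windows, of which 17.5% held CACGTG and 7.79% held TCACGTGA. CACGTG also contains ACGTG, the core that hypoxia-inducible factors read, so a match does not name the factor. A match is a description of these letters and was not tested for binding.

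The stretches below are the 120 bases directly before the gene start, read 5′ to 3′ on the gene's strand, with CACGTG in capitals. Ctsd, Mcoln1 and Atg3 are shown because theirs are the 3 member windows with TCACGTGA. Lamp1 is shown for its 4 copies of CACGTG, and Lamtor4 and Bnip3 because these genes had the largest differences between the arrays; these last 3 were chosen after the values were seen. Ctsd lies at chr7:142387828-142387947 (minus strand), Mcoln1 at chr8:3500399-3500518 (plus), Atg3 at chr16:45158709-45158828 (plus), Lamp1 at chr8:13159041-13159160 (plus), Lamtor4 at chr5:138255362-138255481 (plus) and Bnip3 at chr7:138909507-138909626 (minus).
Ctsd: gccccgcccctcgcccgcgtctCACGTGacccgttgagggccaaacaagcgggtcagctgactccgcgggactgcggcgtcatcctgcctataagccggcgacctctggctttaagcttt
Mcoln1: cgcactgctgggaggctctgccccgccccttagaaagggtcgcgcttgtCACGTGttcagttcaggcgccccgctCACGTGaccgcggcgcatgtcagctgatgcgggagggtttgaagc
Atg3: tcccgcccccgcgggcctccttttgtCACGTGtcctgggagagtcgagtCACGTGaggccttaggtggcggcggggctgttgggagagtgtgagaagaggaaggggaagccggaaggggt
Lamp1: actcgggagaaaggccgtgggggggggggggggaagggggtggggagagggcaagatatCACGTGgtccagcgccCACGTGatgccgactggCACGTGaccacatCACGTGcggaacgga
Lamtor4: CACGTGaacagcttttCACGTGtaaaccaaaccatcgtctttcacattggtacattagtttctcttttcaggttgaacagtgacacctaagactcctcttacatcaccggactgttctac
Bnip3: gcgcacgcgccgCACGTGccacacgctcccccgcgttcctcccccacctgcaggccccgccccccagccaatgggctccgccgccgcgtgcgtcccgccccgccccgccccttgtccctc

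Counted from the gene start, with -1 as the base just before it, the core began at -94 and -71 in Atg3, at -71 and -45 in Mcoln1, and at -245 and -98 in Ctsd, of which the stretch shown holds the nearer. In Lamp1 the copies began at -61, -45, -28 and -15. In Lamtor4 they began at -120 and -104, and in Bnip3 the only copy began at -108. Genes with and without the core did not separate by their difference between the arrays. The 12 with CACGTG had log2 differences (Pot1a minus control-GFP) from -0.51 to 0.18 with a median of 0.058, and 5 of 12 were below 0. The 20 kept genes whose windows lack it ranged from -0.29 to 0.26 with a median of 0.091, and 5 of 20 were below 0.

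**Figure D1:**
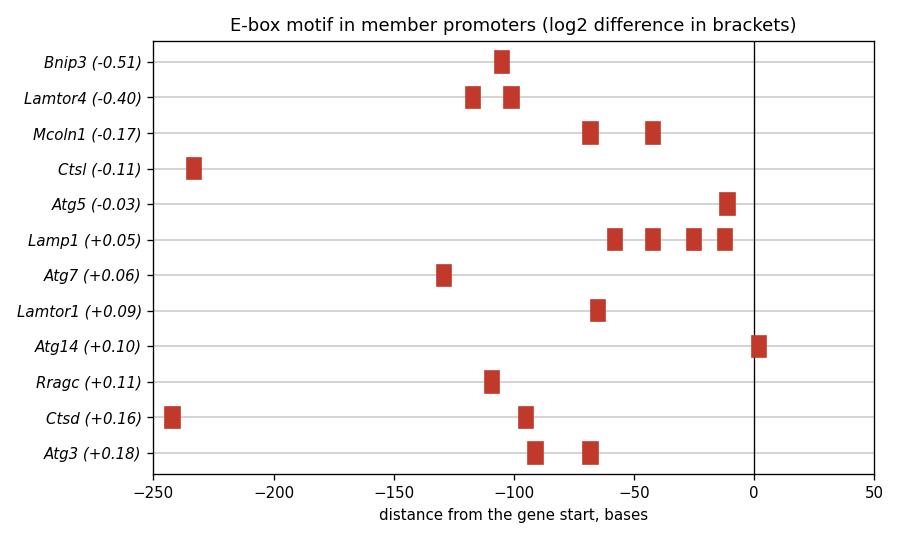
Positions of the E-box core in the 12 member promoters that hold it, in bases from the gene start at 0 (x axis). Each red box is 1 copy, rows run from the lowest log2 difference (Bnip3, -0.51) to the highest (Atg3, 0.18), and Lamp1 has 4 copies.

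Before the members, the transduced gene and the identity of the cells were checked. Pot1a itself had a log2 intensity of 11.06 in Pot1a-transduced cells and 8.08 in control-GFP cells, a log2 difference of 2.98. All 7 LT-HSC markers measured, of 9 listed, were kept, with log2 intensities of 7.19 to 11.66 in Pot1a cells and 7.30 to 11.54 in control-GFP cells. Of these 7, 5 were below 0 (median difference -0.084), and Procr (EPCR) was past 1.2-fold, at 7.30 in Pot1a cells and 7.63 in control-GFP cells (-0.33); the part of this in the members' differences was not tested. Of 33 measured markers of macrophages, granulocytes, mast cells, megakaryocytes, erythroid and lymphoid cells, 10 were kept, against 11450 of 22180 genes in all. The brightest was the platelet factor Pf4, at 9.72 in Pot1a cells and 9.73 in control-GFP cells. All 3 measured megakaryocyte markers were kept, at 8.16 to 9.72 in Pot1a cells and 8.31 to 9.73 in control-GFP cells. Macrophages and monocytes are rich in lysosomes. The summed intensity of their 11 measured markers was 719 in Pot1a cells and 729 in control-GFP cells, their brightest marker Lyz2 was at 7.77 in Pot1a cells and 7.79 in control-GFP cells, and the defining markers Adgre1 and Csf1r lay below the median of all genes in both arrays. Adgre1 was at 4.97 in Pot1a cells and 5.30 in control-GFP cells, and Csf1r at 5.18 in Pot1a cells and 5.55 in control-GFP cells. Adgre1 and Csf1r were picked after the values were seen. Of the 11 markers, 4 were kept (Lyz2, C1qa, Itgam and Marco), 2 of them below 0 and 2 above. Among these 4, Marco differed most, at 6.31 in Pot1a cells and 5.77 in control-GFP cells. The part of macrophages and monocytes in the members' differences was not tested.

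Over the 39 genes kept, the level of lysosome and autophagy genes was nearly the same in Pot1a-transduced and control-GFP LT-HSCs. The log2 difference ran from -0.51 to 0.26 with a median of 0.055 (SD over genes 0.18), beside a median of 0.0014 and an SD of 0.20 over all genes kept. Summed over the 40 genes measured, the intensities came to 16125 in Pot1a cells and 15837 in control-GFP cells. Of the 39 genes, 15 had a difference below 0 (38.5%), against 48.8% of all genes kept. At a 1.2-fold difference, a log2 difference of 0.263, 4 genes were lower in Pot1a cells (10.3%, against 8.88% of all genes kept), namely Bnip3, Lamtor4, Map1lc3a and Gabarapl2. No member was at least 1.2-fold higher, a fold that 7.45% of all genes kept reached. The share that was lower was thus near that of all genes. No member reached 1.5-fold in either direction, where 0.445% of all genes kept were lower and 0.507% higher, or 2-fold, where 0.00873% were lower and 0.0262% higher. On the low side, the member just inside the 1.2-fold limit was Gabarapl2 at -0.29 and the one just outside it Lamtor2 at -0.25. On the high side, the member just outside it was Mitf at 0.26, which missed it by less than the rounding of these values. Mitf reached the limit, at 0.28, once the trend of the difference with mean intensity was removed. In RNA of a sorted population, fewer cells that express a gene and less of its RNA per cell cannot be told apart.

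**Figure D2:**
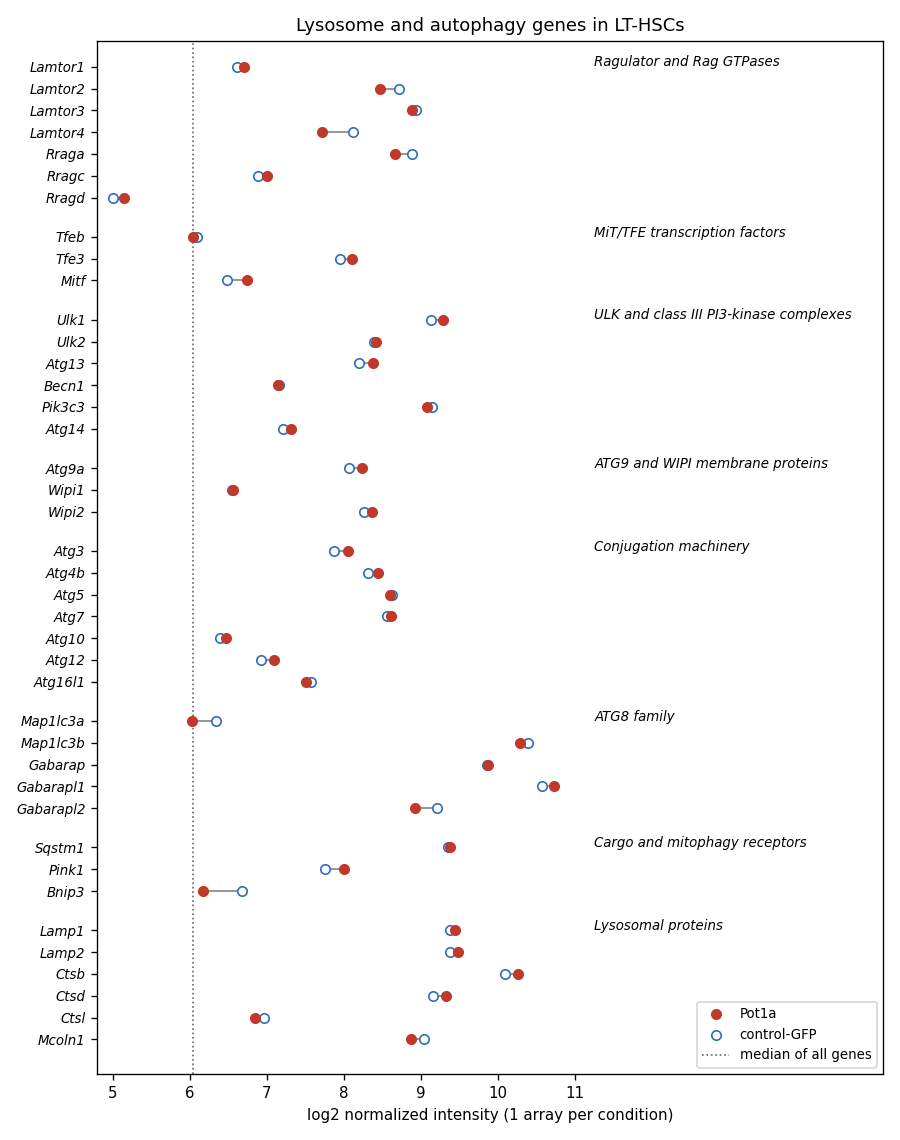
Log2 normalized intensity (x axis) of the 40 measured genes by role, with Pot1a-transduced cells as filled red points and control-GFP cells as open blue points, 1 array each. Most pairs lie close together, and the widest gaps are those of Bnip3 (6.17 in Pot1a, 6.67 in control-GFP) and Lamtor4 (7.72 in Pot1a, 8.12 in control-GFP); the dotted line is the median of all genes.

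The medians of the roles lay on both sides of 0. Medians were below 0 for the Ragulator and Rag GTPases (-0.13, 4 of 6 genes below 0) and the ATG8 family (-0.11, 3 of 5 genes below 0). Medians were above 0 for the MiT/TFE factors (0.16), the ATG9 and WIPI proteins (0.11), the conjugation machinery (0.085), the lysosomal proteins (0.076), the ULK and PI3-kinase complexes (0.057) and the cargo and mitophagy receptors (0.027). Over all genes kept, 48.8% were below 0, with a median of 0.0014 and lower and upper quartiles of -0.13 and 0.12. These groups hold 3 to 7 genes each, and single genes of a group often lay on opposite sides of 0. Whether the groups differ from all genes was not tested.

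Within Ragulator, the scaffold that tethers the Rag GTPases to the lysosomal membrane, Lamtor4 and Lamtor2 were lower in Pot1a cells and the other two subunits listed differed by less than 0.1. Lamtor4, one of the small roadblock-fold subunits, had an intensity of 211 in Pot1a cells and 278 in control-GFP cells, log2 values of 7.72 and 8.12 (difference -0.40). This is 0.758 times the control level, and 2.54% of all genes kept lay lower. Lamtor2 (p14), which forms a heterodimer with Lamtor3, had 356 in Pot1a cells and 422 in control-GFP cells (difference -0.25). Its partner Lamtor3 (MP1) had 474 in Pot1a cells and 488 in control-GFP cells, a difference of -0.043. A second, dimmer probe set of Lamtor3 differed by 0.11, so the direction of Lamtor3 depends on the probe set. Lamtor1 (p18), whose lipid anchor holds the whole complex on the membrane, was on the other side of 0, with 104 in Pot1a cells and 97.9 in control-GFP cells (0.086).

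The Rag GTPases act as a dimer of RagA or RagB with RagC or RagD. Rraga, which encodes RagA, had an intensity of 406 in Pot1a cells and 472 in control-GFP cells (difference -0.22). Its partner Rragc had 128 in Pot1a cells and 118 in control-GFP cells (0.11). Rraga and Rragc thus lay on opposite sides of 0. Rragd, which was dim in both arrays with 35.5 in Pot1a cells and 32.2 in control-GFP cells, differed by 0.14, and with it the group's median was -0.043. A stricter filter, at the 75th percentile of all genes, left out Lamtor1 and Rragc, the only kept genes of the group above 0. The median of the group was then -0.23.

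The MiT/TFE factors drive lysosomal and autophagy genes when they enter the nucleus, a step that phosphorylation controls, so RNA level is only a part of their activity. Mitf had an intensity of 108 in Pot1a cells and 89.6 in control-GFP cells, the largest positive difference of all members at 0.26. Tfe3 had 277 in Pot1a cells and 248 in control-GFP cells (0.16). Tfeb lay near the median of all genes, with 65.8 in Pot1a cells and 68.2 in control-GFP cells (-0.053). Among genes of like brightness (the 500 nearest in mean), the SD of the difference was 0.21 for Mitf, 0.19 for Tfe3 and 0.23 for Tfeb. The difference of Mitf exceeded that SD and those of Tfe3 and Tfeb did not.

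Autophagosome formation starts with the ULK kinase complex, which activates the class III PI3-kinase complex. Ulk1, the main initiating kinase, had 624 in Pot1a cells and 562 in control-GFP cells (0.15), and its paralog Ulk2 had 341 in Pot1a cells and 337 in control-GFP cells (0.017). Atg13, the adaptor of the kinase, had 333 in Pot1a cells and 292 in control-GFP cells (0.19). In the lipid kinase complex the differences were smaller. The catalytic subunit Pik3c3 (VPS34) differed by -0.058, the scaffold Becn1 by -0.012 and Atg14, the subunit particular to autophagy, by 0.097. The ATG9 and WIPI membrane proteins were all above 0, as were 5745 of the 11450 genes kept. Atg9a, a scramblase carried on vesicles that seed the membrane, had 303 in Pot1a cells and 268 in control-GFP cells (0.18). The PI3P readers Wipi2 and Wipi1 differed by 0.11 and 0.012.

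The conjugation machinery attaches ATG8 proteins to the lipid of the growing membrane. Of its 7 genes, 5 were above 0, and the range was narrow, from -0.070 to 0.18. Atg3, the E2-like enzyme that transfers ATG8 to lipid, had 266 in Pot1a cells and 235 in control-GFP cells (0.18). Atg12, a ubiquitin-like protein, had 136 in Pot1a cells and 122 in control-GFP cells (0.16). Atg4b, the protease that primes and recycles ATG8, differed by 0.14. Atg10, the E2-like enzyme for ATG12, and Atg7, the E1-like enzyme for both pathways, differed by 0.085 and 0.061. Atg5, to which ATG12 is joined, differed by -0.032 and Atg16l1, which brings the conjugate to the membrane, by -0.070. Each of the 7 differences was smaller than the SD of genes of like brightness (0.17 to 0.22), and none reached 1.2-fold.

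The ATG8 family, the ubiquitin-like proteins that coat the autophagosome and hold cargo receptors, was split. Gabarapl2 (GATE-16) had an intensity of 486 in Pot1a cells and 594 in control-GFP cells (difference -0.29, 0.818 times the control level). Map1lc3a (LC3A) was dimmer, with 65.2 in Pot1a cells and 80.9 in control-GFP cells (-0.31). Map1lc3a was at or above the median of all genes in control-GFP cells only and was kept through that array, and with a constant of 16 added to each intensity its difference was -0.25, under 1.2-fold. Map1lc3b (LC3B), the form most used to follow autophagy, had 1248 in Pot1a cells and 1345 in control-GFP cells (-0.11). Gabarapl1 lay on the other side, with 1700 in Pot1a cells and 1517 in control-GFP cells (0.16). Gabarap had 937 in Pot1a cells and 929 in control-GFP cells, and its probe sets differed by 0.013 and 0.014. With the filter at the 75th percentile of all genes, which leaves out Map1lc3a, the median of the family was -0.048. Summed over the 5 genes, the intensities were 4436 in Pot1a cells and 4466 in control-GFP cells.

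The 2 mitophagy genes measured among the members lay toward opposite ends of them. Bnip3, a receptor on the outer mitochondrial membrane that is a known target of hypoxia-inducible factor, had the largest difference of all members. Its intensity was 71.9 in Pot1a cells and 102 in control-GFP cells, log2 values of 6.17 and 6.67 (difference -0.51, 0.704 times the control level). Of all genes kept, 0.908% lay lower, and the SD of genes of like brightness was 0.22. Bnip3 was dim, with its value in Pot1a cells close to the median of all genes there (6.03). With a constant of 16 added to each intensity its difference was -0.43. Pink1, the kinase that marks damaged mitochondria for the ubiquitin ligase parkin, had 256 in Pot1a cells and 217 in control-GFP cells (0.24), and 90.7% of all genes kept lay lower. The cargo receptor Sqstm1 (p62), which links ubiquitinated cargo to ATG8 proteins, had 666 in Pot1a cells and 654 in control-GFP cells (0.027).

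Among proteins of the lysosome, the membrane glycoproteins Lamp1 and Lamp2 hardly differed. Lamp1 had 694 in Pot1a cells and 668 in control-GFP cells (0.055), and Lamp2 had 714 in Pot1a cells and 668 in control-GFP cells (0.097). The proteases were on both sides of 0. Ctsb, a cysteine protease, had 1230 in Pot1a cells and 1088 in control-GFP cells (0.18) and Ctsd, the main aspartic protease, had 640 in Pot1a cells and 572 in control-GFP cells (0.16), whereas Ctsl had 116 in Pot1a cells and 125 in control-GFP cells (-0.11). Mcoln1 (TRPML1), the channel that releases calcium from the lysosome, had 468 in Pot1a cells and 526 in control-GFP cells (-0.17). Ctsd and Mcoln1, which both hold TCACGTGA before their start, thus lay on opposite sides of 0.

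**Figure D3:**
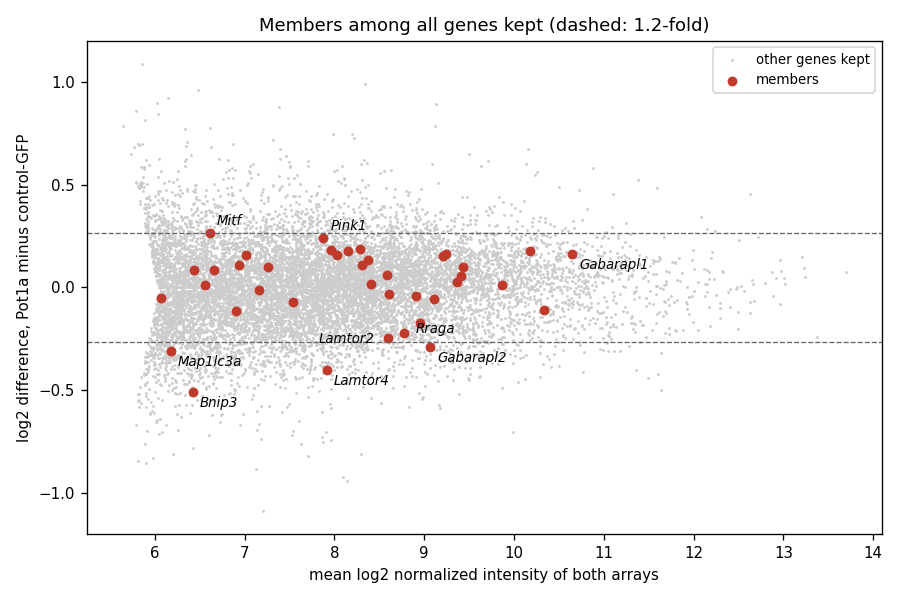
Log2 difference, Pot1a minus control-GFP (y axis), against mean log2 intensity of both arrays (x axis), with the 39 members kept as red points among all other genes kept in grey and dashed lines at 1.2-fold. The members lie inside the cloud of other genes, with Bnip3 (-0.51), Lamtor4 (-0.40), Map1lc3a (-0.31) and Gabarapl2 (-0.29) below the lower line; Pot1a and any other gene beyond 1.2 are off the axis.

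Further genes of the same pathways also lay on both sides of 0. Of 153 genes in 7 lists, 143 were measured and 138 kept, of which 61 were below 0 (44.2%, against 48.8% of all genes kept), with a median of 0.034. At least 1.2-fold lower were 5 genes (3.62%, against 8.88% of all genes kept), and at least 1.2-fold higher were 8 (5.80%, against 7.45%). Among the V-ATPase subunits, which acidify the lysosome and bind Ragulator, 9 of 17 were below 0 (median -0.031). Atp6v1g1 was at 8.76 in Pot1a cells and 9.07 in control-GFP cells (-0.31) and Atp6v1d at 8.13 in Pot1a cells and 8.43 in control-GFP cells (-0.29), while Atp6v1f was at 7.08 in Pot1a cells and 6.55 in control-GFP cells (0.53), the largest difference of any gene kept in these lists. Of 34 further lysosomal hydrolases and cofactors, 14 were below 0 (median 0.071), with the cysteine protease Ctss at -0.46, the cholesterol carrier Npc2 at -0.38 and the asparaginyl endopeptidase Lgmn at 0.30. Ctss was dim, with log2 values of 6.15 in Pot1a cells and 6.62 in control-GFP cells. Of 24 further lysosomal membrane proteins, 8 were below 0 (median 0.065), with Laptm4b at 0.29, Mfsd8 at -0.27 and the transporter Abca2 at 0.27.

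Of 18 genes listed as further Rag regulators, 9 were below 0 and the median was 0.0063. The list also holds Lamtor5, another Ragulator subunit (-0.041), and Rragb, which encodes the Rag GTPase RagB (-0.15). Itfg2 and Kptn, both subunits of the KICSTOR complex that places the GATOR1 complex on the lysosome, differed by 0.35 and -0.25, and Castor2, a relative of the arginine sensor, by 0.25. Of 17 further genes of the autophagy core, 10 were below 0 (median -0.036), although the largest differences were positive, with Uvrag, a partner of Becn1, and the lipid transfer protein Atg2a at 0.30 each and Ambra1, a regulator of Becn1, at 0.22. Of 14 genes for the fusion of autophagosomes with lysosomes, 7 were below 0 (median 0.0084), with the SNARE proteins Ykt6 at 0.28 and Vamp8 at -0.21 and the tether Tecpr1 at -0.21. Of 14 further receptors, 4 were below 0 (median 0.041), with the mitophagy receptor Bcl2l13 at 0.25, the kinase Tbk1 at -0.18 and Nbr1 at 0.14. None of the 14 genes kept of the last list reached 1.2-fold, and Fundc1, a mitophagy receptor of that list that was below the median of all genes in both arrays and not kept, differed by -0.41.

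**Figure D4:**
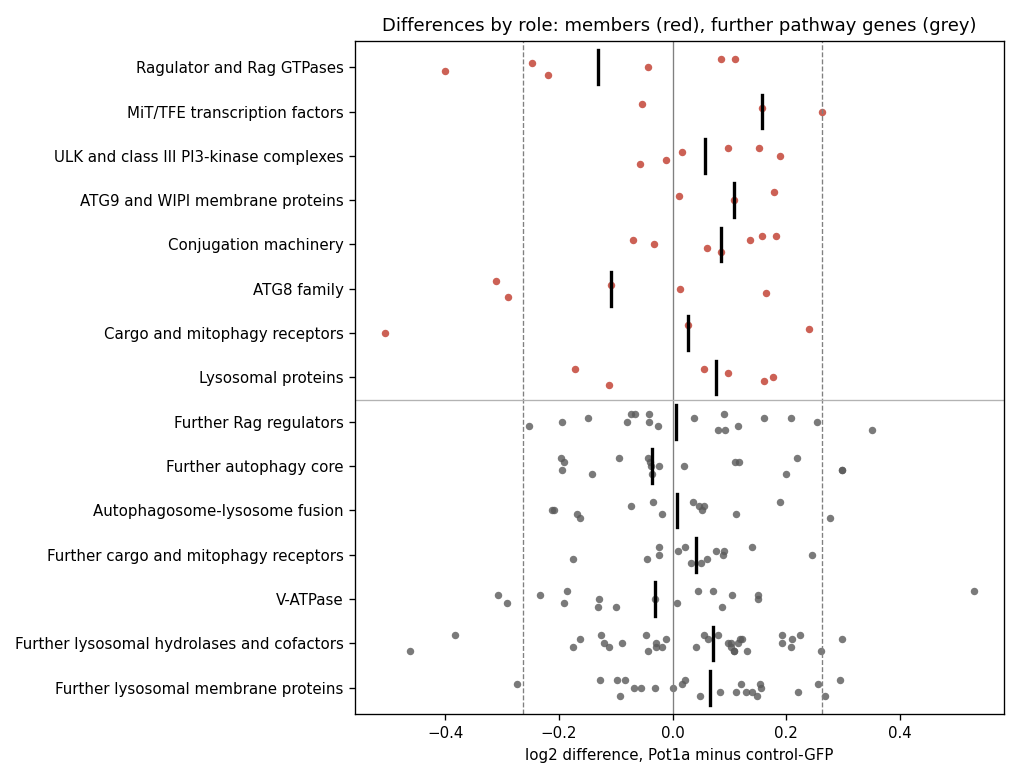
Log2 difference, Pot1a minus control-GFP (x axis), of each gene kept, for the 8 roles of the members (red) and the 7 lists of further genes (grey), with the median of each as a black bar and dashed lines at 1.2-fold. The Ragulator and Rag group (-0.13) and the ATG8 family (-0.11) have the lowest medians and the MiT/TFE factors (0.16) the highest.

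Of the 6 members with the lowest differences, a cut not set in advance, 4 span under 5 kb. Among 11396 genes kept with a span, 1836 do. Of these 4 members, Lamtor4, Lamtor2 and Rraga are also the lowest genes of the Ragulator and Rag group, so the 2 observations share genes. Of the members at least 1.2-fold lower, Lamtor4 and Map1lc3a span under 5 kb and Bnip3 and Gabarapl2 do not. The 5 members that span under 5 kb in the RefSeq annotation (Rraga, Map1lc3a, Lamtor2, Gabarap and Lamtor4) had a median difference of -0.25, with 4 of 5 below 0. All genes kept of that length also had a lower median, -0.057 over 1836 genes. For spans of 5 to 20 kb the median was 0.055 over 17 members and -0.016 over 3770 genes, and for 20 to 50 kb it was 0.14 over 9 members, of which 1 was below 0, and 0.017 over 3002 genes. From 50 kb on, the median was 0.039 over 8 members and 0.036 over 2788 genes. Spearman's rho between span and difference was 0.29 over the 39 members and 0.15 over 11396 genes kept with a span. Over the 177 genes kept of the members and the further lists together it was 0.17, near the value of all genes. These are points across genes on the same 2 arrays, not replicates, and the part of gene length in the differences was not tested. Bnip3, with a span of 18.7 kb, and Gabarapl2, with 12.2 kb, were also lower and fall in the 5 to 20 kb class. The median span over all genes kept was 20580 bases.

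**Figure D5:**
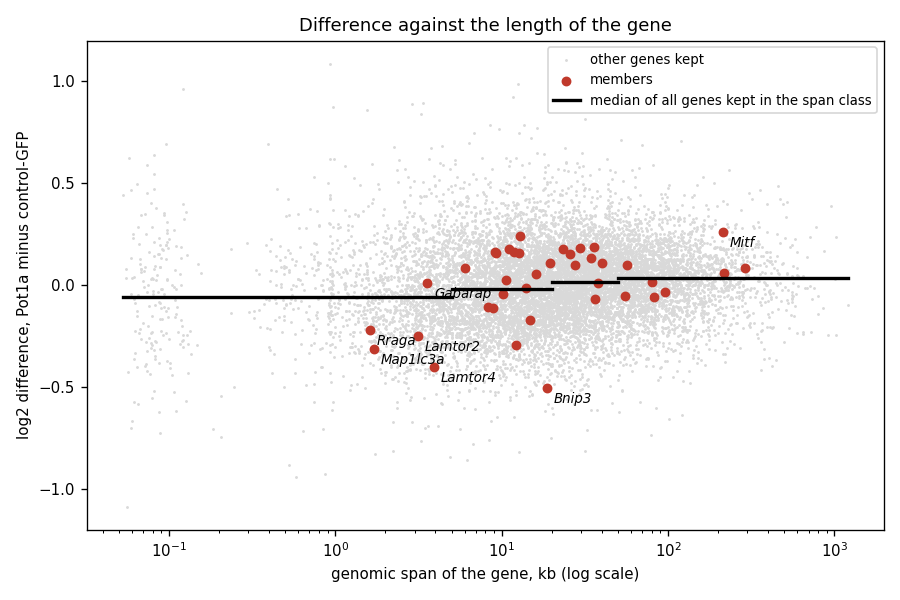
Log2 difference, Pot1a minus control-GFP (y axis), against the genomic span of the gene in kb on a log scale (x axis), with members in red, other genes kept in grey and the median of all genes kept in each of 4 span classes as black lines (-0.057, -0.016, 0.017 and 0.036). Of the 5 shortest members 4 lie below 0; Pot1a and any other gene beyond 1.2 are off the axis.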

How the data were processed

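For each array, the deposited column holds linear, already normalized intensities of 34365 probe sets, with medians of 52.6 (Pot1a) and 53.1 (control-GFP). Their methods, written for arrays of aged cells, name RMA and quantile normalization in Expression Console; for these arrays the sources used here give neither the settings nor detection calls, and the scale, taken as linear from the values, could not be set against scanner files. With 1 array per condition the noise between arrays is unknown. Log2 was taken and the difference is Pot1a minus control-GFP. Of the probe sets, 23521 have 1 gene symbol in the platform annotation, 1820 several and 9024 none; only the first were named. For each of 22180 genes the probe set brightest on average in log2 was taken, and genes at or above the gene-level median in at least 1 array were kept. Roles, further gene lists and markers were set, and members chosen, with earlier results of these data known. All members are named, with the 3 largest differences of each further list and the brightest marker of other cells. Lamtor5, Rragb, Fundc1, Procr, C1qa, Itgam and Marco are also named. The macrophage markers Adgre1 and Csf1r and the promoters of Lamp1, Lamtor4 and Bnip3 were added after values were seen. Genomic spans and promoters are from RefSeq (GRCm38.p6). The alternatives tried were probe set means, other filters and folds, removal of the loess trend (fraction 0.3), centring, a pseudocount of 16, means for medians, and leaving out either of 2 role groups. The code steps were tested on simulated data with planted differences larger than that of any member, called at 1.5-fold. That check does not bear on the calls at 1.2-fold. Python 3.11.15, pandas 2.3.3, scipy 1.17.1 and statsmodels 0.14.6 were used.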

Additional observations from a re-analysis of the deposited data

How the results depend on the processing

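The number of members at least 1.2-fold lower was 2 of 26 with a filter at the 75th percentile, which left out Bnip3 and Map1lc3a. It was 0 at 1.5-fold and at 2-fold. Under the stricter filter 9 of the 26 members were below 0. Of all genes kept under that filter, 6.63% were at least 1.2-fold lower and 45.4% were below 0. Removal of the loess trend put 1 member of 39, Mitf, at 1.2-fold higher, a fold that 7.78% of all genes kept then reached. The median of the members, 0.055, was 0.0073 as a mean and 0.027 without the lysosomal proteins. Under the alternatives for probe sets, filter, trend, centring and pseudocount, Becn1, Gabarap and Lamtor3 changed sign. Small medians of groups turned: the cargo and mitophagy receptors were at -0.080 as a mean (0.13 with the stricter filter); further Rag regulators were at -0.033 with probe sets averaged and -0.041 with the stricter filter; the V-ATPase was at 0.0075 with probe sets averaged; the further autophagy core was at 0.037 with the stricter filter and 0.015 as a mean; and the fusion genes were at -0.0079 as a mean. The cause of these turns was not tested, beyond what fewer genes or averaging imply by construction. With so few arrays precision is low throughout. No paired analysis was possible because neither Pot1a nor control-GFP was measured more than once, and no replicate could be left out. Tfeb and Map1lc3a lie near the filter, and Rragd lies below it in both arrays.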
